A study of Mus musculus with 8 samples.

Results

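Genes that load, start and run the machinery of DNA replication in S phase were followed in cultured mouse pancreatic cancer cells. The set has 42 genes, named by symbol and found through the Ensembl identifiers of the deposited count table, which lists 42687 genes. No measured value entered the choice of each gene, although results of these data were known when the set was drawn up. The cells were a low immunogenic clonal line, and so a single clone, derived from KPCY mice. These carry KrasLSL-G12D/+ and Trp53LSL-R172H/+ alleles, Pdx1-Cre to recombine them in the pancreatic lineage, and Rosa26YFP/YFP as a reporter. All groups share that background, and their genotype label reads WT. Cells were given PBS, ATEVs at 15 µg/mL, NTEVs at 30 µg/mL or DNase-pretreated ATEVs at 15 µg/mL, the DNase being Baseline-ZERO, and they were harvested and reseeded the next day over 8 cycles. NTEVs are extracellular vesicles (EVs) that non-activated T cells release. The name ATEV is not spelled out in the labels and is read as its counterpart from activated T cells. The protocol relates the doses to 5 µg/mL of EV-DNA. Each group had 2 libraries, numbered 1 and 2 in their labels.

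Replication is licensed in G1, when the origin recognition complex, CDC6 and CDT1 load the MCM2-7 helicase onto origins as an inactive ring. At the start of S phase CDC45 and the GINS complex join the ring to make the active CMG helicase, and polymerases, the PCNA clamp and its loader follow. Most of these genes are transcribed from late G1 by E2F factors once cyclin D and cyclin E kinases have released them from the retinoblastoma protein, so their summed RNA in a culture is widely used as a readout of proliferation. In RNA from whole cultures, fewer cells in S phase and less RNA in each such cell cannot be told apart.

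Total counts ranged from 34385326 to 52451398 per library, and the 42 genes had from 75 to 17681 counts per library. All 42 passed the filter on low counts. Levels are given as CPM, counts scaled to library size, after TMM scaling, a correction for library composition, and compare the same gene between libraries. The labelled cell type was checked against markers: 10 of 10 ductal and epithelial genes were tested, with a summed level of 8850 to 11820 CPM. This sum was 8850 to 10560 in the EV libraries numbered 1 and 9558 to 11820 in those numbered 2. Nearly all of it was keratin genes, Cdh1 and Muc1. Cldn4 was at 0.023 to 2.04 CPM and Sox9 at 3.82 to 9.11. Epcam was at 6.44, 18.5 and 16.8 CPM in the ATEV, NTEV and DNase-treated libraries numbered 1, 15.3, 26.8 and 29.9 in those numbered 2, and 18.2 and 15.9 with PBS. Of 12 T cell markers, Cd8a and Cd2 were at 0 in every library, and the list summed to 6.17 to 11.6 CPM, nearly all of it Lck and Trac. It summed to 8.48 to 11.5 CPM in the EV libraries numbered 1 and to 6.17 to 8.71 in those numbered 2. Of 9 myeloid and B cell markers Adgre1 and Ms4a1 were at 0 in every library, and the list, most of it Cd68, summed to 2.49 to 6.10 CPM (2.78 to 3.90 in the EV libraries numbered 1 and 3.45 to 6.10 in those numbered 2). Of 9 fibroblast and endothelial markers Dcn and Lum were at 0 in every library, and the list summed to 3.08 to 10.9 CPM (3.08 to 6.39 in the EV libraries numbered 1 and 5.96 to 10.9 in those numbered 2). Most of it was Col1a1, at 2.14, 4.63 and 5.71 CPM in the ATEV, NTEV and DNase-treated libraries numbered 1, 4.77, 8.39 and 9.76 in those numbered 2, and 4.14 and 2.13 in the PBS libraries. The part of these markers in the differences by number given below was not tested. Nothing in the labels tells if the 2 libraries of a treatment were grown as separate cultures, so each p-value speaks only of the spread among libraries, and that spread may be technical.

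The promoters are shown first because E2F-type sites before the start are what many genes of this set are known for. RefSeq promoter entries (build GRCm38.p6) were matched by symbol for 34 of the 42 genes, and no entry was used for Ccne2, Mcm4, Pole, Gins1, Gins2, Gins4, Prim2 and Rfc2. The letters TTTCCCGC, TTTGGCGC, TTTCGCGC and TTTGCCGC were searched on both strands in the 250 bases before each start. At least 1 match was found for 9 of 34 genes (26.5%), against 2.16% of the 27025 genes searched. The genes searched were not limited to those that passed the filter on low counts, so they are not a matched background. With 50 bases after the start included, the shares were 38.2% (13 of 34) and 2.60%. The genes with a match in the 250 bases were Orc1, Cdc6, Mcm5, Mcm6, Mcm7, Gins3, Pola1, Rfc3 and Uhrf1. A match is a description of letters, not a shown binding site, and a window without one says nothing of E2F binding.

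The 200 bases before the start are printed 5′ to 3′ on the strand of the gene, with matches in capitals. The first set holds the genes that had the smallest p-values between the libraries of different number among those with an entry, together with E2f1. They are Mcm3 at chr1:20820313-20820512 (minus strand), Mcm2 at chr6:88898781-88898980 (minus strand), Uhrf1 at chr17:56304113-56304312 (plus strand), Ccne1 at chr7:38107491-38107690 (minus strand) and E2f1 at chr2:154569427-154569626 (minus strand). Uhrf1 has 2 starts in the table, and the start with a match, 185 bases upstream, is shown.
Mcm3: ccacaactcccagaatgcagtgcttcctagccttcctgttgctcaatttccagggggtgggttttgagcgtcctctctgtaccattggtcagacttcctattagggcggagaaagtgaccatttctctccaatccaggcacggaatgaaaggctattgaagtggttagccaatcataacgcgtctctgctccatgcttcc
Mcm2: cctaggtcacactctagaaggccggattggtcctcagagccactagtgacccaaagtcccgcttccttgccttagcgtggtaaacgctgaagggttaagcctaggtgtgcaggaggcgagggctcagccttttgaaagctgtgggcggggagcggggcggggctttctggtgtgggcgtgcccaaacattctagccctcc
Uhrf1: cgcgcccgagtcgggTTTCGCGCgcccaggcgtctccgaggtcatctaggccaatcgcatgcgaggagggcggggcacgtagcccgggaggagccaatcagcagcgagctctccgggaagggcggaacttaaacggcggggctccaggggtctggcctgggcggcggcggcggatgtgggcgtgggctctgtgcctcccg
Ccne1: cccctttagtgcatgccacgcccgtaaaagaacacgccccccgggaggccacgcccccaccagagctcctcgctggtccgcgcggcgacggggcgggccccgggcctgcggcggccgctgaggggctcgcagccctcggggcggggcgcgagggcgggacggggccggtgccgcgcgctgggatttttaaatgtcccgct
E2f1: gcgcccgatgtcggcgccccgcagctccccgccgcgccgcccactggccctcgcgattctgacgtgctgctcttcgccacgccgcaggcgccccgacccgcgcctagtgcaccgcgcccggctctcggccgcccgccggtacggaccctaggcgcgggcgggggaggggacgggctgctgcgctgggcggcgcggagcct

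The second set was chosen after the search. It holds the genes with a match, beyond Uhrf1, that had the smallest p-values between the libraries of different number. They are Cdc6 at chr11:98907951-98908150 (plus strand), Mcm5 at chr8:75109309-75109508 (plus strand), Mcm7 at chr5:138171884-138172083 (minus strand) and Pola1 at chrX:93632156-93632355 (minus strand). The match lies 138 bases upstream in both Cdc6 and Pola1 and 165 bases upstream in Mcm7. Mcm7 has 2 starts among the entries, and the start with a match is shown, the other having none. Mcm5 holds 2 overlapping matches, at 153 and 149 bases, one on each strand.
Cdc6: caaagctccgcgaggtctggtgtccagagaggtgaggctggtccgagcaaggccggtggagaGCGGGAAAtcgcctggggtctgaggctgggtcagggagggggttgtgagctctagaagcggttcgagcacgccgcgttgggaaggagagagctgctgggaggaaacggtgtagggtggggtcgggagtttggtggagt
Mcm5: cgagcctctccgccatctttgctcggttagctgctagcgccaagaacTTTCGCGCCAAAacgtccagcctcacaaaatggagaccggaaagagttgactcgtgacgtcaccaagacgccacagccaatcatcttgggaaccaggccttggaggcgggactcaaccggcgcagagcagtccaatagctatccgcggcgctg
Mcm7: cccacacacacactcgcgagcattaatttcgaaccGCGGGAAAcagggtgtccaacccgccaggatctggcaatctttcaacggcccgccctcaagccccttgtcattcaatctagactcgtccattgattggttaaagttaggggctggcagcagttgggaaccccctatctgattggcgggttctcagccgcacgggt
Pola1: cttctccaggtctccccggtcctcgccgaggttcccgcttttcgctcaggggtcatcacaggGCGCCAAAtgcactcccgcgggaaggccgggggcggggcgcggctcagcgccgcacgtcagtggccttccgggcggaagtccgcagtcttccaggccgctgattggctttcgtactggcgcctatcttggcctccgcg

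The 8 libraries did not separate by treatment alone. The summed level of the 42 genes was 4376 and 5502 CPM in PBS libraries 1 and 2, 5613 and 2538 in the ATEV libraries, 4199 and 2205 in the NTEV libraries, and 3752 and 2336 in those with DNase-treated ATEVs. In each EV group library 2 was the low one, whereas with PBS library 2 was the high one. All 3 EV libraries numbered 2 lay below both PBS libraries for 42 of the 42 genes, against 31.5% of all genes tested, and all 3 numbered 1 did so for 2, Ccne2 and Tyms, against 19.8%. ATEV library 1 had the highest level of all 8 libraries for 22 genes and PBS library 2 for 17. The lowest level was in NTEV library 2 for 25 genes, in DNase-treated ATEV library 2 for 14 and in ATEV library 2 for 3. Every group difference below therefore rests on libraries that differ within their own group, and each is given by library number as well.

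**Figure D1:**
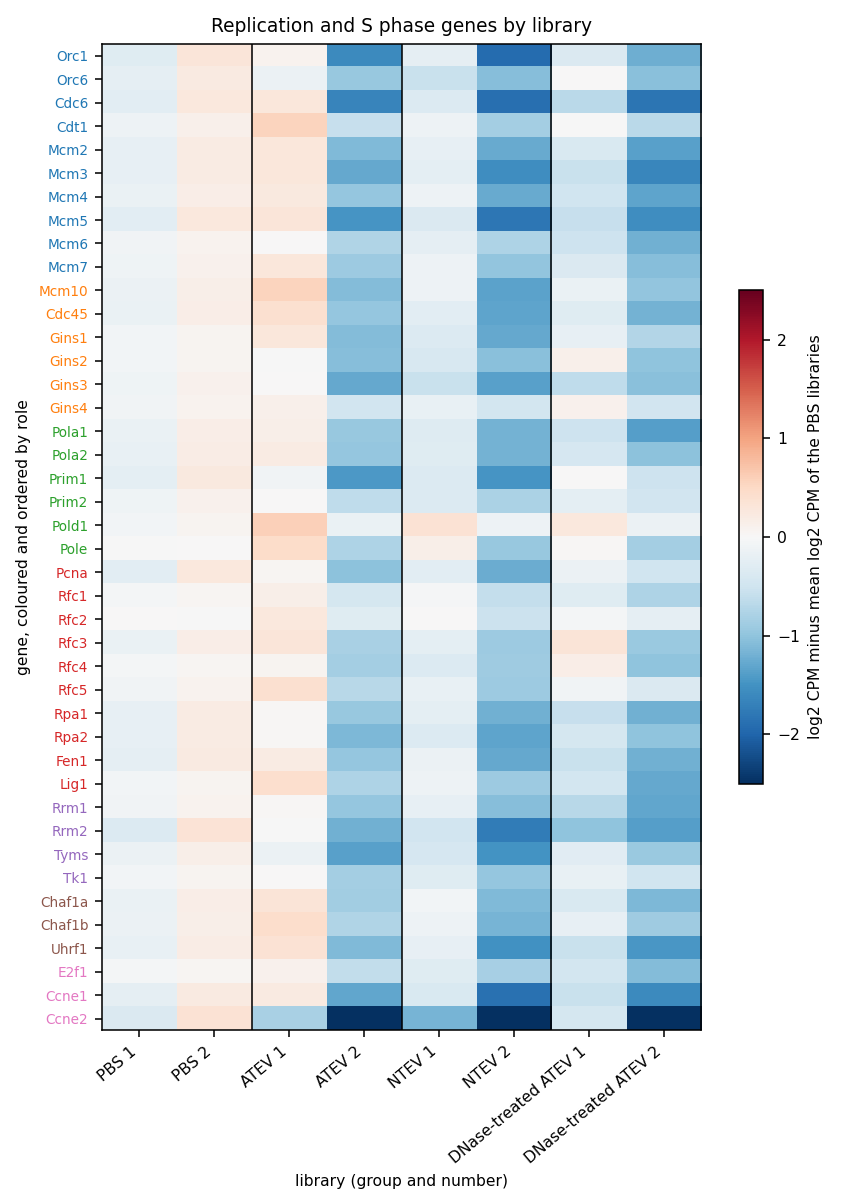
Heat map of the 42 genes (vertical axis, coloured and ordered by role) in the 8 libraries (horizontal axis), as log2 CPM minus the mean log2 CPM of the PBS libraries. Blue fills the EV libraries numbered 2, while ATEV library 1 is mostly pale red; colours stop at 2.5 either way, and the 3 values beyond are those of Ccne2 in the EV libraries numbered 2, down to -3.36.

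Libraries 2 of the 3 EV groups were compared with libraries 1 in a model with group as a term, which was chosen because same-numbered EV libraries were already known to vary together. It is therefore a measurement of that difference and not independent support for it. All 42 genes fell (edgeR, adjusted p from 0.000356 to 0.0104), against 18.9% of the 14875 genes tested that were called lower. The libraries of the 2 numbers did not overlap for any of the 42 genes, as for 19.7% of all genes in that direction. The median log2 fold change was -0.94 over the 42 genes and 0.0013 over all genes tested, and 13 of the 42 were at least 2-fold lower. An exact permutation test over 3 pairs cannot go below 0.25, so the adjusted p-values rest on the spread shared across genes. With the PBS pair added to the fit edgeR called 0 of the 42 (31 lower at an unadjusted p under 0.05, median -0.63). That fit called only 1 of the 15197 genes tested (0.00658%) and 0 as lower, so its 0 is not particular to these genes. The share of all genes at an unadjusted p under 0.05 is not given for it. The direction is that of the numbers, and nothing in the labels says what a number stands for. In the sentences that follow, EV libraries are listed in the order ATEV, NTEV and DNase-treated ATEV.

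**Figure D2:**
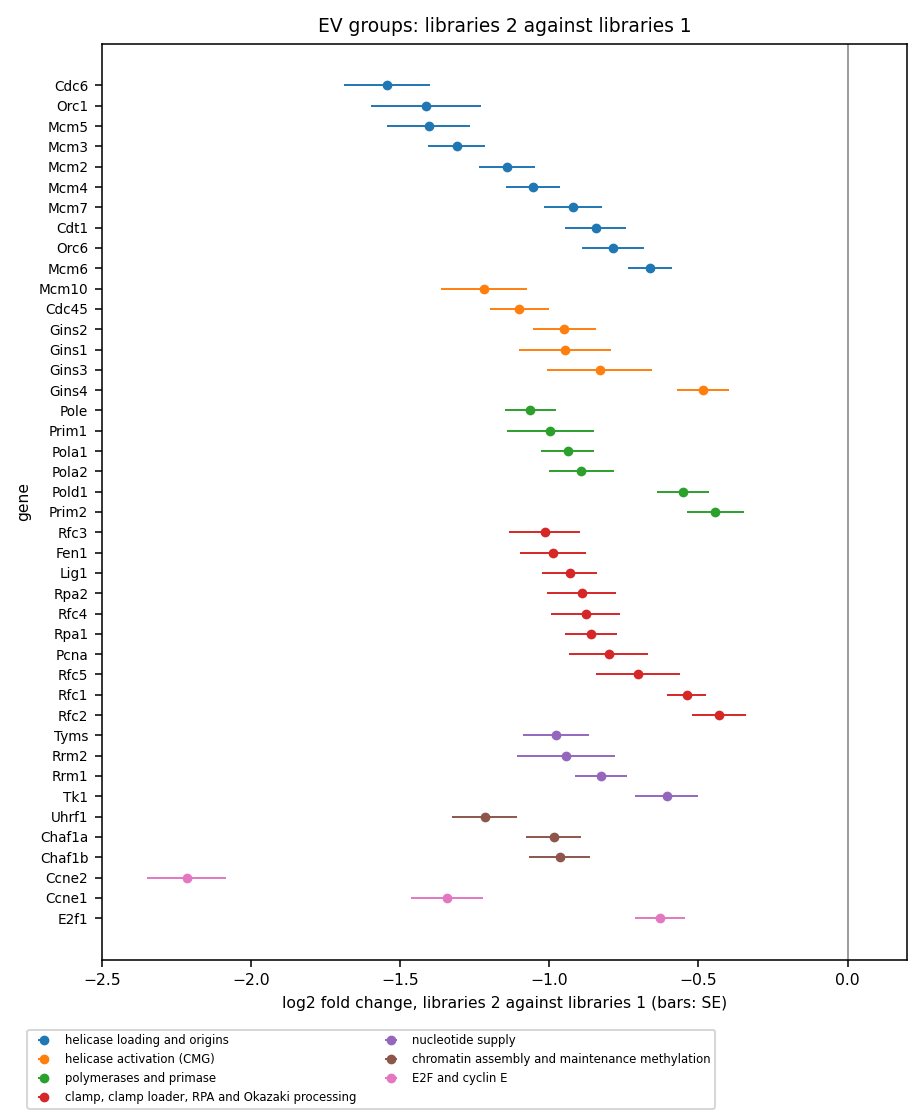
Log2 fold change of libraries 2 against libraries 1 in the 3 EV groups (horizontal axis) for each gene (vertical axis), with bars for 1 SE from edgeR and colours for role. All 42 points lie left of 0, from -0.43 for Rfc2 to -2.22 for Ccne2.

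Ccne2 and Ccne1 encode the E-type cyclins that activate CDK2 at the G1/S boundary. Ccne2 was at 10.9, 8.56 and 14.2 CPM in the EV libraries numbered 1, 2.37, 1.87 and 2.99 in those numbered 2, and 14.9 and 24.7 with PBS. It fell by 2.22 on the log2 scale (SE 0.13, adjusted p = 0.000356, edgeR), 4.64-fold lower and the largest fall of the 42. Its 3 libraries numbered 2 were far below every other library, on counts as low as 75. Ccne1 was at 35.1, 23.0 and 20.3 CPM in the EV libraries numbered 1, 12.3, 8.24 and 9.98 in those numbered 2, and 25.6 and 35.3 with PBS, a log2 fold change of -1.34 ± 0.12 SE. E2f1 encodes an activating E2F factor and was at 37.6, 28.4 and 25.2 CPM in the EV libraries numbered 1, 22.6, 19.5 and 16.5 in those numbered 2, and 33.8 and 35.8 with PBS. Its fall of 0.63 on the log2 scale (SE 0.08) was the smallest of these 3.

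The 10 genes of helicase loading fell by 0.66 to 1.54 on the log2 scale, with a median of -1.10. Cdc6 encodes the ATPase that joins the origin recognition complex to load MCM rings, and it had the largest fall among them. Cdc6 was at 52.3, 34.0 and 26.9 CPM in the EV libraries numbered 1, 13.8, 11.6 and 12.2 in those numbered 2, and 36.1 and 51.4 with PBS, and every EV library 2 lay well below every EV library 1 (-1.54 ± 0.14 SE, adjusted p = 0.000672). Orc1, the largest subunit of the origin recognition complex, was at 14.4, 11.5 and 10.6 CPM in the EV libraries numbered 1, 4.47, 3.56 and 5.78 in those numbered 2, and 10.9 and 16.7 with PBS (log2 fold change -1.41 ± 0.19 SE). Cdt1, the other loading factor, was at 158, 98.0 and 107 CPM in the EV libraries numbered 1, 71.5, 59.1 and 67.3 in those numbered 2, and 97.4 and 117 with PBS. Its log2 fold change was -0.84 ± 0.10 SE, and ATEV library 1 was its highest library. Orc6 had a log2 fold change of -0.79 ± 0.10 SE.

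Among the MCM subunits, which form the ring itself, Mcm5 and Mcm3 fell most and Mcm6 least. Mcm5 was at 279, 175 and 152 CPM in the EV libraries numbered 1, 80.9, 64.3 and 77.0 in those numbered 2, and 187 and 272 with PBS (log2 fold change -1.40 ± 0.14 SE). Mcm3 was at 303, 211 and 171 CPM in the EV libraries numbered 1, 104, 85.9 and 80.6 in those numbered 2, and 216 and 290.2 with PBS (log2 fold change -1.31 ± 0.10 SE, adjusted p = 0.000477). The first-numbered libraries of both genes overlapped the PBS libraries, and the second-numbered ones did not. Mcm2 was at 267, 189 and 168 CPM in the EV libraries numbered 1, 101, 90.6 and 85.7 in those numbered 2, and 190.3 and 250 with PBS (log2 fold change -1.14 ± 0.09 SE). Mcm4 was at 379.6, 294 and 226 CPM in the EV libraries numbered 1, 163, 134 and 129 in those numbered 2, and 287 and 358 with PBS (log2 fold change -1.05 ± 0.09 SE). Mcm6 was at 292, 247 and 202 CPM in the EV libraries numbered 1, 172, 170.3 and 126 in those numbered 2, and 274 and 308 with PBS, and its log2 fold change was -0.66 ± 0.07 SE. Mcm7 lay between, at -0.92 ± 0.10 SE, and the differences among subunits were not tested.

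Of the 6 genes that turn the ring into an active helicase, Mcm10 fell most and Gins4 least. Mcm10 encodes a factor needed to activate CMG, and it was at 80.0, 50.1 and 48.3 CPM in the EV libraries numbered 1, 25.8, 21.6 and 27.6 in those numbered 2, and 49.3 and 60.2 with PBS (log2 fold change -1.22 ± 0.14 SE). Cdc45 encodes a CMG subunit and was at 82.9, 52.4 and 51.2 CPM in the EV libraries numbered 1, 32.3, 25.2 and 27.8 in those numbered 2, and 55.9 and 71.2 with PBS (log2 fold change -1.10 ± 0.10 SE). For both genes ATEV library 1 was the highest of the 8 libraries. The 4 GINS subunits fell by 0.48 to 0.95 on the log2 scale. Gins2 was at 49.5, 38.0 and 54.5 CPM in the EV libraries numbered 1, 23.9, 24.0 and 24.7 in those numbered 2, and 47.4 and 52.4 with PBS (log2 fold change -0.95 ± 0.11 SE), with DNase-treated ATEV library 1 the highest. Gins4 was at 69.7, 55.8 and 68.4 CPM in the EV libraries numbered 1, 45.7, 46.3 and 45.8 in those numbered 2, and 60.4 and 67.4 with PBS (log2 fold change -0.48 ± 0.09 SE), while Gins1 and Gins3 had log2 fold changes of -0.95 and -0.83.

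Polymerase and primase genes fell by 0.44 to 1.06 on the log2 scale. Pole, the catalytic subunit of the leading strand polymerase, was at 113, 90.7 and 83.3 CPM in the EV libraries numbered 1, 47.8, 42.6 and 45.8 in those numbered 2, and 81.4 and 82.7 with PBS (log2 fold change -1.06 ± 0.09 SE, adjusted p = 0.000569). Pold1, the catalytic subunit of polymerase delta, was at 115, 97.0 and 90.7 CPM in the EV libraries numbered 1, 67.3, 69.7 and 68.7 in those numbered 2, and 72.2 and 79.9 with PBS (log2 fold change -0.55 ± 0.09 SE). Pold1 differed from most of the set in that its 3 libraries numbered 1 lay above both PBS libraries, and its libraries numbered 2 were only just below them. Pola1, the catalytic subunit of the primer-extending polymerase alpha, was at 48.0, 34.4 and 30.0 CPM in the EV libraries numbered 1, 22.3, 19.1 and 16.6 in those numbered 2, and 38.6 and 48.2 with PBS (log2 fold change -0.94 ± 0.09 SE). Prim2, a primase subunit, was at 47.6, 37.4 and 39.8 CPM in the EV libraries numbered 1, 30.4, 27.3 and 34.1 in those numbered 2, and 44.2 and 50.9 with PBS and had the smallest fall of these 6 (-0.44 ± 0.10 SE). Prim1, its partner, and Pola2 had log2 fold changes of -0.996 and -0.89.

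The genes of the sliding clamp, its loader, the single-strand binding protein and Okazaki fragment processing had a median log2 fold change of -0.87. Pcna, the clamp, was at 201, 161 and 175 CPM in the EV libraries numbered 1, 95.4, 82.0 and 137 in those numbered 2, and 162 and 230.4 with PBS (log2 fold change -0.80 ± 0.13 SE). A Pcna pseudogene, Pcna-ps2, had 9 to 41 counts per library, against 3295 to 8732 for Pcna itself. Lig1, the ligase that joins Okazaki fragments, was at 173, 119 and 95.4 CPM in the EV libraries numbered 1, 76.3, 69.2 and 54.0 in those numbered 2, and 124 and 138 with PBS (log2 fold change -0.93 ± 0.09 SE). Rfc3 and Rfc2 are subunits of the clamp loader and marked the largest and smallest falls here. Rfc3 was at 45.9, 31.7 and 47.1 CPM in the EV libraries numbered 1, 21.2, 19.9 and 19.6 in those numbered 2, and 33.2 and 42.1 with PBS (log2 fold change -1.02 ± 0.12 SE). Rfc2 was at 89.1, 75.5 and 72.2 CPM in the EV libraries numbered 1, 60.8, 51.3 and 63.6 in those numbered 2, and 75.3 and 73.9 with PBS (log2 fold change -0.43 ± 0.09 SE), the smallest fall of all 42. The flap nuclease gene Fen1, the single-strand binding genes Rpa1 and Rpa2, and the loader genes Rfc1, Rfc4 and Rfc5 fell by 0.54 to 0.99 on the log2 scale.

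Genes of deoxynucleotide supply fell by 0.61 to 0.98 on the log2 scale. Rrm2, the regulated subunit of ribonucleotide reductase, was at 407, 297 and 204 CPM in the EV libraries numbered 1, 179, 123 and 158 in those numbered 2, and 324 and 522 with PBS (log2 fold change -0.94 ± 0.16 SE). Rrm2 was also the gene of these 4 that differed most between the PBS libraries. Tyms, thymidylate synthase, was at 81.2, 67.8 and 74.2 CPM in the EV libraries numbered 1, 35.1, 32.1 and 47.4 in those numbered 2, and 81.4 and 100.3 with PBS (log2 fold change -0.98 ± 0.11 SE). Tk1, the S phase thymidine kinase, was at 115, 92.6 and 100.1 CPM in the EV libraries numbered 1, 63.5, 58.7 and 81.1 in those numbered 2, and 109 and 121 with PBS (log2 fold change -0.61 ± 0.11 SE). Rrm1, the large reductase subunit, had a log2 fold change of -0.83 ± 0.09 SE.

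The 3 genes that rebuild chromatin behind the fork fell by 0.97 to 1.22 on the log2 scale. Uhrf1 recruits the maintenance methyltransferase to newly copied DNA, and it was at 264, 179.6 and 141 CPM in the EV libraries numbered 1, 96.6, 72.7 and 75.8 in those numbered 2, and 182 and 235 with PBS (log2 fold change -1.22 ± 0.11 SE, adjusted p = 0.000623). Chaf1a and Chaf1b encode subunits of the histone chaperone CAF-1. Chaf1a was at 145, 111 and 90.2 CPM in the EV libraries numbered 1, 64.3, 54.2 and 53.6 in those numbered 2, and 105 and 130.0 with PBS (log2 fold change -0.99 ± 0.09 SE). Chaf1b was at 115, 77.5 and 73.3 CPM in the EV libraries numbered 1, 50.1, 38.1 and 46.0 in those numbered 2, and 76.9 and 93.3 with PBS (log2 fold change -0.97 ± 0.10 SE).

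Within each group, the log2 difference of library 2 minus library 1 had a median over the 42 genes of -1.18 in the ATEV pair, -0.95 in the NTEV pair and -0.68 in the DNase-treated pair. All 42 were below 0 in each EV group, against 49.5% to 52.2% of all genes tested. With PBS the median was 0.31, and 41 of 42 genes were higher in library 2, the exception being Rfc2 at -0.03. The ATEV pair had the largest fall of the 3 for 34 genes. The NTEV pair had it for Rrm2, Rfc2 and Orc1, and the DNase-treated pair for Rfc4, Ccne2, Orc6, Gins2 and Rfc3. As a description across genes, which are not independent replicates, the deviations of same-numbered libraries from their group means correlated over the 42 genes at 0.92 between ATEVs and NTEVs. The same value was 0.63 between ATEVs and DNase-treated ATEVs and 0.56 between NTEVs and DNase-treated ATEVs. Over all 15197 genes tested these 3 correlations were 0.53, 0.55 and 0.49. PBS correlated with these groups at -0.67, -0.76 and -0.43 over the 42 genes and at -0.18, -0.24 and -0.14 over all genes, and the libraries of 1 pair share their 2 measurements in each value.

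**Figure D3:**
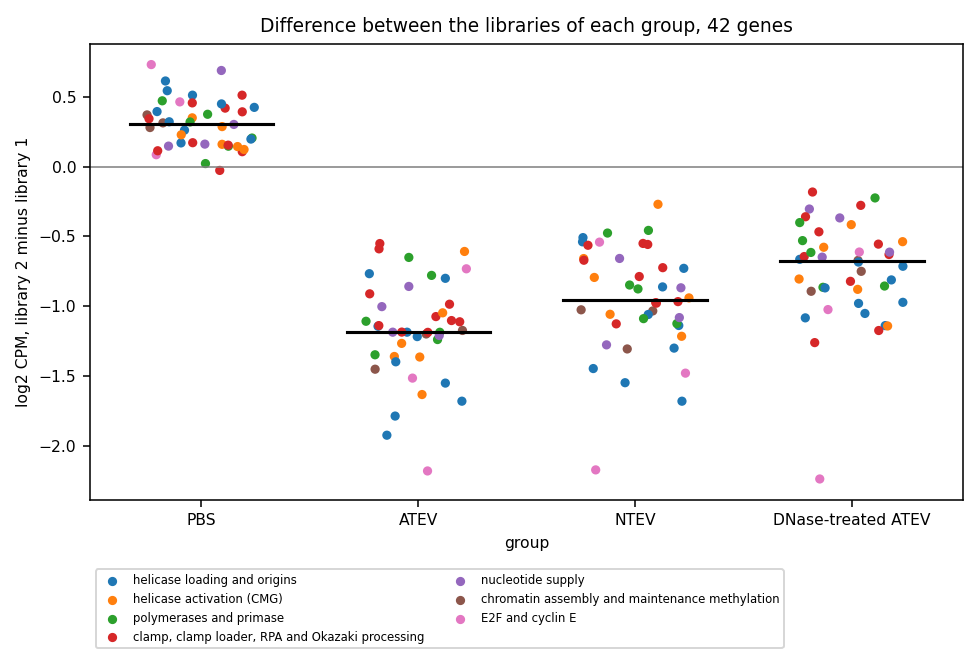
Log2 CPM of library 2 minus library 1 (vertical axis) for each of the 42 genes in each group (horizontal axis), coloured by role, with a black line at the median. The EV groups lie below 0 with medians of -1.18, -0.95 and -0.68, the lowest point of each being Ccne2, and PBS lies mostly above 0 with a median of 0.31.

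The difference between the numbers was then set against that of PBS in a fit over all 8 libraries, in which PBS has only 1 pair and 2 residual degrees of freedom remain. The PBS pair has no spread of its own in that fit, so all the residual spread is that of the EV pairs, and since the EV difference was known beforehand the result is not independent support for it. The difference was lower in the EV groups for 38 of 42 genes (edgeR, adjusted p under 0.05), against 10.5% of the 15197 genes tested. Ccne2 differed most, by -2.95 ± 0.22 (SE) on the log2 scale (adjusted p = 0.00301), followed by Cdc6 at -2.06 ± 0.27 and Orc1 at -2.03 ± 0.35. Rfc2 (-0.40 ± 0.18, adjusted p = 0.168), Prim2 (-0.65 ± 0.19, adjusted p = 0.0504), Gins3 (-1.06 ± 0.33, adjusted p = 0.0635) and Rfc5 (-0.87 ± 0.28, adjusted p = 0.0669) did not pass. The PBS pair by itself gave 0 of the 42 genes and 17 of all genes.

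Other genes of the pathway, from lists drawn up with earlier results of these data known, fell with the set in the libraries numbered 2. Of 105 tested, 82 fell and 4 rose, against 18.9% of all genes tested called lower and 15.9% called higher. The median log2 fold change of the 105 was -0.68. Among origin and helicase factors 12 of 15 fell and 0 rose. Orc2 was at 70.6, 60.1 and 67.5 CPM in the EV libraries numbered 1, 34.4, 26.9 and 38.1 in those numbered 2, and 68.1 and 91.1 with PBS (log2 fold change -1.01 ± 0.08 SE), and Mtbp, Recql4 and the licensing inhibitor Gmnn had log2 fold changes of -1.01, -1.13 and -0.84. Among replisome and fork factors 19 of 23 fell and 1 rose. Exo1, Clspn, Dtl and Chtf18 fell by 0.82 to 1.29, and the small polymerase delta subunit Pold4 rose, at 33.3, 42.1 and 49.1 CPM in the EV libraries numbered 1, 58.3, 65.9 and 73.4 in those numbered 2, and 42.1 and 39.9 with PBS (log2 fold change 0.68 ± 0.07 SE). Of 13 other genes of nucleotide supply 12 fell and 0 rose, led by the pyrimidine synthesis enzyme Cad (-1.24 ± 0.07 SE), with Ctps at -0.72, Gmps at -0.65 and Umps at -0.57. Of 9 chromatin replication genes 8 fell and 0 rose, with the maintenance methyltransferase Dnmt1 at -0.91 ± 0.08 SE, Nasp at -0.96, Asf1b at -1.09 and Cdca7 at -0.997. Of 17 replication stress and recombination genes 16 fell and 0 rose, Brca2 by 1.02, Fanca by 0.93 and Msh6 by 0.75 on the log2 scale.

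Genes of G2 and mitosis moved too, with a median log2 fold change of -0.67. Of these 30 genes 28 fell and 0 rose, against 18.9% of all genes tested called lower. Their summed level was 5952, 4655 and 3903 CPM in the EV libraries numbered 1, 3159, 2667 and 2845 in those numbered 2, and 4742 and 5266 with PBS. Top2a fell by 1.01, Mad2l1 by 0.995, Anln by 0.84 and Kif23 by 0.56 on the log2 scale. Of 28 G1/S regulators 15 fell and 3 rose, the latter a smaller share than the 15.9% of all genes tested that were called higher. The repressor-type E2F genes E2f8 and E2f7 fell by 1.32 and 1.27, and Skp2, which targets p27 for degradation, by 1.07. The 3 that rose were the CDK inhibitor genes Cdkn1a (0.99 ± 0.10 SE, adjusted p = 0.000850) and Cdkn1b (0.47 ± 0.08 SE) and the pocket protein gene Rbl2 (0.35 ± 0.07 SE). Cdkn1a was at 7.80, 9.30 and 8.98 CPM in the EV libraries numbered 1, 14.2, 19.3 and 18.3 in those numbered 2, and 9.89 and 19.3 with PBS. It was thus higher in library 2 of all 4 groups, including PBS, in which 41 of the 42 genes were higher in library 2 as well. Rb1 (-0.15, adjusted p = 0.296) and Cdk6 (-0.07, adjusted p = 0.475) did not pass.

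**Figure D4:**
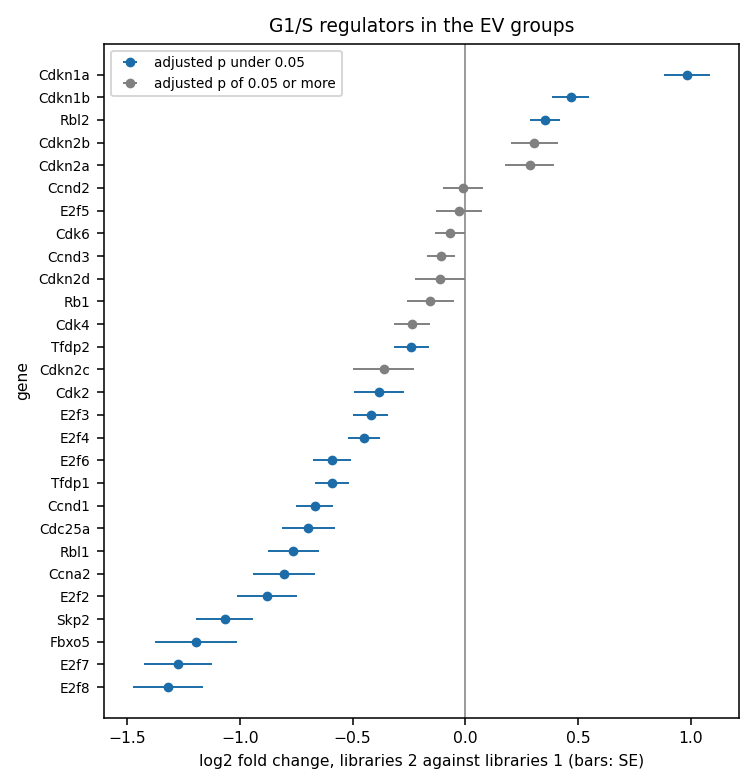
Log2 fold change of libraries 2 against libraries 1 in the EV groups (horizontal axis) for the 28 tested G1/S regulators (vertical axis), with bars for 1 SE and blue for an adjusted p under 0.05. Cdkn1a, Cdkn1b and Rbl2 are the blue points right of 0, and E2f8 and E2f7 are farthest left.

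The comparisons of each EV with PBS ask whether repeated exposure moved these genes, and none of the 42 passed in any of the 3. They share the PBS libraries. With ATEVs 39 of 42 log2 fold changes were below 0 (51.7% of all genes), with a median of -0.28, and edgeR called 0, against 5.19% of all genes tested. An unadjusted p under 0.05 was found for 0 of the 42 (21.9% of all genes), and DESeq2 called 0, against 8.97% of all genes it tested. With NTEVs 41 were below 0 (50.1% of all genes), the median was -0.64, and edgeR called 0, against 1.11% of all genes. There 0 had an unadjusted p under 0.05 (19.1% of all genes) and DESeq2 called 0, against 4.68% of all genes it tested. With DNase-treated ATEVs 41 were below 0 (50% of all genes), the median was -0.69, and edgeR called 0, against 3.01% of all genes. In this group 3 were lower at an unadjusted p under 0.05 (10.9% of all genes lower, 24.7% in either direction). DESeq2 called 0 here, against 9.13% of all genes it tested. The medians over all genes tested were -0.02, -0.0006 and 0. Both libraries lay below both PBS libraries for 2 genes with ATEVs (Ccne2 and Tyms), 31 with NTEVs and 32 in the DNase-treated group, against 27.3%, 30.9% and 30.9% of all genes. With 2 libraries against 2, an exact permutation test cannot go below 0.333.

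The genes that came nearest were in the DNase-treated group. Rrm2 was at 324 and 522 CPM in the PBS libraries, 407 and 179 in the ATEV libraries, 297 and 123 in the NTEV libraries, and 204 and 158 in those with DNase-treated ATEVs. The means of Rrm2 were 423 ± 139.9 CPM with PBS and 181 ± 32.5 with DNase-treated ATEVs (SD, n = 2), and the log2 fold change was -1.22 ± 0.51 SE (edgeR, adjusted p = 0.1996). Both DNase-treated libraries lay below both PBS libraries. Rrm1, its partner subunit, was at 219.7 and 246 CPM in the PBS libraries, 238 and 119 in the ATEV libraries, 202 and 111 in the NTEV libraries, and 144 and 94.3 in those with DNase-treated ATEVs, with a log2 fold change of -0.96 ± 0.40 SE (edgeR, adjusted p = 0.196). Mcm6 was at 274 and 308 CPM in the PBS libraries, 292 and 172 in the ATEV libraries, 247 and 170.3 in the NTEV libraries, and 202 and 126 in those with DNase-treated ATEVs, with a log2 fold change of -0.83 ± 0.33 SE (edgeR, adjusted p = 0.179). These 3 are the genes with an unadjusted p under 0.05 in the main fit. With no filter on low counts edgeR called the 3 of them lower, against 1.91% of all genes called lower (6.03% in either direction). The number lower at an unadjusted p under 0.05 depended on the fit. With DNase-treated ATEVs it was 23 with no filter and 22 with only the libraries compared. For NTEVs it was 23 and 10, and for ATEVs 2 and 0. The shares of all genes at that level are not given for these fits.

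By role, the fitted log2 fold changes against PBS were as follows, none of them past the threshold. For helicase loading they ran with ATEVs from -0.55 (Orc1) to 0.10 (Cdt1), with NTEVs from -0.94 (Mcm5) to -0.45 (Cdt1), and with DNase-treated ATEVs from -1.16 (Cdc6) to -0.30 (Cdt1). Cdt1 was the member nearest to PBS, or above it, in all 3. For helicase activation Gins3 was the lowest in each, at -0.50, -0.90 and -0.83, and the highest were Mcm10 at -0.05 with ATEVs and Gins4 at -0.32 and -0.16 with the other 2. Among polymerases Pold1 was the highest in each, at 0.26, 0.13 and 0.07, and the lowest were Prim1 at -0.64 and -0.82 and Pola1 at -0.90. Pold1 was the only gene of the 42 with a positive value in all 3.

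In the clamp and ligase group Rfc2 was the highest in each, at 0.0057, -0.24 and -0.14, and the lowest were Rpa2 at -0.45 and -0.77 and Rpa1 at -0.87. For nucleotide supply the values ran from -0.64 (Tyms) to -0.36 (Tk1) with ATEVs, from -1.01 (Rrm2) to -0.57 (Rrm1) with NTEVs, and from -1.22 (Rrm2) to -0.34 (Tk1) with DNase-treated ATEVs. Among the chromatin genes Uhrf1 was the lowest in each, at -0.21, -0.72 and -0.95, with Chaf1b at -0.04, Chaf1a at -0.51 and Chaf1b at -0.51 the highest. Ccne2 was the lowest of the cyclin E and E2F genes, at -1.58 ± 1.00 SE with ATEVs, -1.92 ± 1.01 SE with NTEVs and -1.20 ± 0.99 SE with DNase-treated ATEVs, and E2f1 was the highest, at -0.21, -0.54 and -0.74. All 6 EV libraries of Ccne2 lay below both PBS libraries, at most 14.2 CPM against 14.9 and 24.7, as was also the case for Tyms.

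Taken by number, the comparison of ATEVs with PBS changed sign, and those of the other 2 EV groups were below 0 in both numbers. ATEV library 1 against PBS library 1 had a median log2 difference of 0.36, with 40 of 42 genes higher, and ATEV library 2 against PBS library 2 one of -1.13, with 42 lower. For NTEVs the medians were -0.09 (31 lower) and -1.34 (42 lower), and for DNase-treated ATEVs -0.16 (32 lower) and -1.18 (42 lower). Over all genes tested 49.4% to 52.0% were lower in these 6 pairs. Leaving out ATEV library 1 moved the fitted ATEV median to -0.93, and leaving out ATEV library 2 moved it to 0.20. Without NTEV library 1 or 2 the NTEV median was -1.15 or -0.26, and without DNase-treated ATEV library 1 or 2 that median was -1.02 or -0.36. A number holds 1 library of each group, so these values have no test. The fits without 1 EV library set 1 number of that group against both PBS numbers, so they also hold the difference between numbers.

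**Figure D5:**
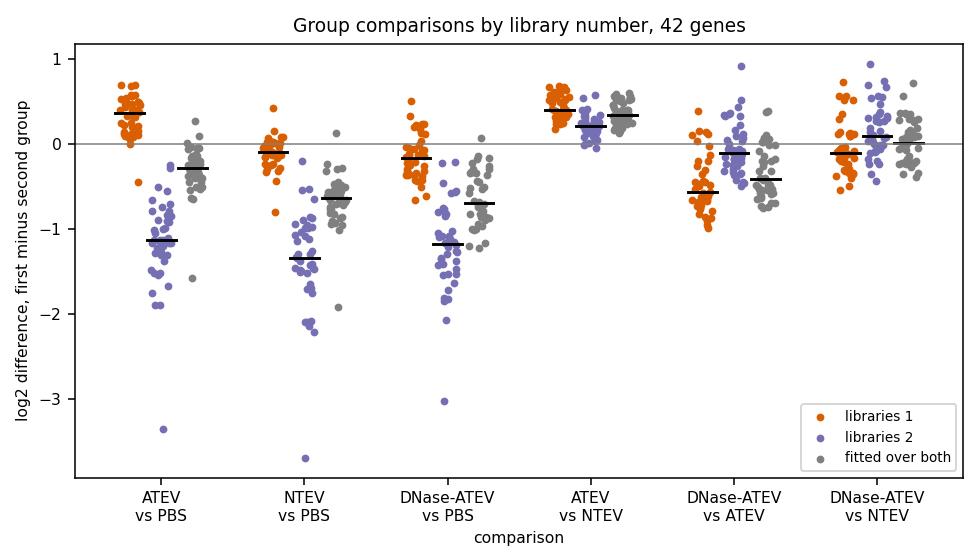
Log2 difference between groups (vertical axis) for the 42 genes in each of the 6 comparisons (horizontal axis), for libraries 1 (orange), libraries 2 (purple) and the fit over both (grey), with black lines at the medians. Against PBS the purple medians lie between -1.13 and -1.34, and the orange ones between -0.16 and 0.36; of the other 3 comparisons only ATEV against NTEV has both medians above 0.

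The comparison of ATEVs with NTEVs asks whether vesicles of the 2 kinds of T cell, as dosed, differed in effect. The doses were 15 and 30 µg/mL, so kind of T cell and vesicle dose cannot be told apart. EdgeR called 0 of the 42 genes, against 1.19% of all genes tested. At an unadjusted p under 0.05 there were 0 of the 42 (8.23% of all genes), and DESeq2 called 0, against 2.65% of all genes it tested. All 42 fitted values were above 0, with a median of 0.34, whereas 48.4% of all genes were below 0. By number the median was 0.40 in libraries 1, with 42 genes higher, and 0.21 in libraries 2, with 39 higher. The gap between numbers was larger than that between groups: Ccne1, with the highest value at 0.60 ± 0.63 SE, stood at 35.1 and 12.3 CPM with ATEVs and at 23.0 and 8.24 with NTEVs. Other high values were 0.59 for Mcm5, 0.57 for Cdc45, 0.52 for Chaf1b, 0.48 for Rrm2, 0.45 for Rfc5 and 0.42 for Pola2, each the highest of its role. The lowest by role were 0.13 for Pold1, 0.15 for Mcm6, 0.16 for Rfc1, 0.18 for Gins4, 0.19 for Rrm1, 0.33 for E2f1 and 0.34 for Chaf1a. The libraries of the groups overlapped for all 42 genes, and 30% of all genes did not overlap. Without ATEV library 1 the median was -0.32 and without NTEV library 2 it was -0.03, whereas without ATEV library 2 it was 0.83 and without NTEV library 1 it was 0.85. Each of these fits sets 1 number of a group against both numbers of the other, so each value also holds the difference between numbers.

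DNase pretreatment was compared with untreated ATEVs, which bears on the DNA carried by the vesicles. EdgeR called 0 of the 42 genes, against 0.665% of all genes tested, and DESeq2 called 0, against 2.15%. An unadjusted p under 0.05 in edgeR was found for 0 (11.3% of all genes). With the library number as a replicate block over the EV libraries alone, a fit chosen after seeing the data, edgeR called 12 of the 42 lower and 0 higher, against 6.43% of all genes called lower. The 12 were Mcm2, Mcm3, Mcm4, Mcm6, Pola1, Rfc1, Rpa1, Lig1, Rrm1, Chaf1a, Uhrf1 and E2f1. The median was -0.41, with 34 genes below 0 (48.3% of all genes), and no gene had libraries that did not overlap, against 36.2% of all genes. In libraries 1 the median difference was -0.57 (36 lower) and in libraries 2 it was -0.11 (26 lower). The lowest by role were Cdc6 (-0.76 ± 0.72 SE), Lig1 (-0.74 ± 0.45 SE), Uhrf1 (-0.74 ± 0.58 SE), Rrm2 (-0.69), Ccne1 (-0.64), Pola1 (-0.59) and Cdc45 (-0.54). The highest were Prim1 (0.38 ± 0.50 SE), Ccne2 (0.38 ± 0.99 SE), Gins2 (0.11), Pcna (0.07), Tyms (0.06), Orc6 (0.06) and Chaf1b (-0.47). Lig1 was at 173 and 76.3 CPM with ATEVs and 95.4 and 54.0 with DNase-treated ATEVs, lower with DNase in both numbers. Prim1 was at 54.6 and 21.5 CPM with ATEVs and 58.6 and 40.6 with DNase-treated ATEVs, higher with DNase in both. Without ATEV library 1 the median was 0.27, and without ATEV library 2 it was -0.85. Both values also hold the difference between numbers.

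Between DNase-treated ATEVs and NTEVs, which also differed in dose (15 and 30 µg/mL), the set was centred on 0. EdgeR called 0 of the 42 genes, against 0.0526% of all genes tested, and DESeq2 called 0, against 1.1%. An unadjusted p under 0.05 in edgeR was found for 0 (10% of all genes). There were 21 genes above 0 and 21 below (48.3% of all genes were below), with a median of 0.01, and no gene had libraries that did not overlap, against 38.6% of all genes. The values ran from -0.39 ± 0.40 SE for Rrm1 to 0.72 ± 0.99 SE for Ccne2. By role the lowest were Mcm6 (-0.35), Lig1 (-0.34), Uhrf1 (-0.22), Pola1 (-0.20), E2f1 (-0.20) and Cdc45 (0.03), and the highest Prim1 (0.57), Orc6 (0.37), Rfc3 (0.37), Gins2 (0.35), Tyms (0.28) and Chaf1b (0.05). The median was -0.10 in libraries 1 and 0.09 in libraries 2. Leaving out 1 library moved it to between -0.41 (without NTEV library 2) and 0.55 (without NTEV library 1), values that also hold the difference between numbers.

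Of the 106 other pathway genes tested edgeR called 0 in any of these 6 comparisons. Those with an unadjusted p under 0.05 are given next, with the shares of all genes tested in brackets. With ATEVs 2 lay above PBS (11.6%) and 4 below (10.3%). With NTEVs 2 lay above PBS (10.3%) and 11 below (8.85%). With DNase-treated ATEVs 1 lay above PBS (13.7%) and 8 below (10.9%). For ATEVs against NTEVs 1 was higher (4.4%) and 0 lower (3.84%). For DNase-treated against untreated ATEVs 0 were higher (6.38%) and 2 lower (4.97%). For DNase-treated ATEVs against NTEVs 1 was higher (5.86%) and 0 lower (4.16%). Samhd1, which breaks down deoxynucleotides, had the smallest p of the other pathway genes in 3 comparisons. These were ATEVs against PBS, ATEVs against NTEVs and DNase-treated against untreated ATEVs. Samhd1 was at 88.1 and 84.3 CPM in the PBS libraries, 354 and 156 in the ATEV libraries, 86.4 and 68.1 in the NTEV libraries, and 78.3 and 67.1 in those with DNase-treated ATEVs, so that both ATEV libraries lay above all 6 others. Its log2 fold change was 1.56 ± 0.35 SE against PBS (edgeR, adjusted p = 0.0519), 1.72 ± 0.35 SE against NTEVs (adjusted p = 0.0944) and -1.81 ± 0.35 SE for DNase-treated against untreated ATEVs (adjusted p = 0.115). It was also lower in library 2 than in library 1 in all 4 groups.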

How the data were processed

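Whole-number gene counts from 8 RNA sequencing libraries were used as deposited, 1 column per library. Per the labels' protocols, total RNA was made into TruSeq stranded mRNA libraries. Per the submitters' processing notes, the tools include bcl2fastq 2.19, TopHat2 2.0.11, TopHat and Cufflinks 2.1.1 and mm9 is named as the build, none with a role or an order. What counted the reads, with which annotation and strand setting, is not given in the sources used here, so values of overlapping or antisense genes and of genes with near-identical copies are uncertain.

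Symbols were matched for 42250 of 42687 identifiers from GENCODE M21, used for names only. No gene coordinates were taken from the files. Promoter sequences came from RefSeq (GRCm38.p6) by symbol. The 42 genes and all other lists were chosen with earlier results of these data known.

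Group and number of each library came from its title. Libraries of a group were not copies of one another (chi-square per gene of 39.0 to 144.5 within the groups). The numbers were not used to pair libraries in the comparisons between groups, because there are only 2 and the labels do not say that a number marks a shared culture or day.

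The tests were run with edgeR 4.0.16 (R 4.3.3, limma 3.58.1). Genes were filtered by edgeR's expression filter by group and scaled by TMM. The quasi-likelihood fit had 1 mean per group and took in all 8 libraries (15197 genes, 4 residual degrees of freedom, common biological coefficient of variation 0.226). Libraries 2 were compared with libraries 1 over the 6 EV libraries with group as a term (14875 genes, 2 residual degrees of freedom, coefficient 0.102). P-values were two-sided and Benjamini-Hochberg adjusted over all genes tested, with a threshold of 0.05. CPM are TMM-scaled, and single-library log2 differences use a prior count of 2. SE stands for the standard error. Alternatives were RLE size factors, DESeq2 1.42.0, no filter on low counts, other sets of libraries, a replicate block and leaving out each library. The group fit, for ATEVs against PBS, and the fit of libraries 2 against libraries 1 were also run on simulated counts with known changes. The simulated counts of the group fit held no variation shared by number, unlike these data. The other fits were not run on simulated counts.

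Values by library are given for the 12 genes with the smallest p in the comparison by number, for the highest and lowest gene of each role there and for 17 genes followed throughout (Mcm2, Mcm5, Cdc6, Cdt1, Cdc45, Gins2, Pcna, Pold1, Pole, Rrm2, Tyms, Tk1, Lig1, Uhrf1, E2f1, Ccne1 and Ccne2). From each other pathway list up to 4 genes with the smallest p were named, 1 of which is not reported here, and Orc1, Rrm1 in the PBS comparison and the regulators Pold4, Cdkn1b, Rbl2, Rb1 and Cdk6 were added after their values were seen.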

Additional observations from a re-analysis of the deposited data

Results flagged for a closer look

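The difference between libraries 2 and libraries 1 was not the same in the EV groups and with PBS for 38 of the 42 genes. This was by a test of the difference itself (edgeR, adjusted p under 0.05). All 38 were lower in the EV groups, against 10.5% of the 15197 genes tested (18% in either direction). PBS has only 1 pair in that test, all of the residual spread comes from the EV pairs, and the EV difference was known before the test, so it is no independent support. Among the genes named throughout, the difference (EV groups minus PBS, log2 scale) was -1.54 for Mcm2, -1.95 for Mcm5, -2.06 for Cdc6 and -1.11 for Cdt1, genes of helicase loading. It was -1.45 for Cdc45 and -1.09 for Gins2, of the CMG helicase, and -0.70 for Pold1 and -1.09 for Pole, the polymerases. The clamp gene Pcna had -1.31 and the ligase gene Lig1 had -1.09. Genes of nucleotide supply had -1.63 (Rrm2), -1.28 (Tyms) and -0.75 (Tk1). Uhrf1 had -1.59, E2f1 -0.71, Ccne1 -1.81 and Ccne2 -2.95. In all 17 the EV libraries were lower in number 2 while the PBS libraries were higher in number 2.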

How the results depend on the processing

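The count of 42 genes lower in libraries 2 held with RLE size factors (17.3% of all genes called lower) and with DESeq2 (17.8%). It held with no filter on low counts (11.4%) and among protein-coding genes (19.4%). Without any 1 of the 3 EV pairs it held as well (median -0.82 to -1.003), against 13.9% to 16.7% of all genes called lower. With all 8 libraries in the fit it was 0 (median -0.63), and only 0.00658% of all genes were called there. Between groups the count of 0 held in each comparison with RLE size factors (0.0526% to 5.19% of all genes called) and DESeq2 (1.1% to 9.13%). The same count held with protein-coding genes only (0.00785% to 2.91%) and with only the libraries compared (0.0138% to 4.6%). With no filter on low counts 3 genes (Mcm6, Rrm1 and Rrm2) were lower with DNase-treated ATEVs than with PBS, against 1.91% of all genes. A replicate block over all 8 libraries gave 0 genes in all 6 comparisons, against 0.158% to 7.78% of all genes called. At an unadjusted p under 0.05 it had 1, 18 and 20 genes lower than PBS with ATEVs, NTEVs and DNase-treated ATEVs. The main fit had 0, 0 and 3, and the shares of all genes at that level are not given for the block. Same-numbered EV libraries varied together (0.49 to 0.55 over all genes) and PBS against them (-0.14 to -0.24), but with 2 numbers and no label for what they mark the libraries were not treated as paired. The next fits were chosen after seeing the data. A replicate block over the EV libraries alone gave 1 gene higher for ATEVs against NTEVs (Cdc45, 3.83% of all genes higher), 12 lower for DNase-treated against untreated ATEVs (6.43% of all genes lower) and 1 higher for DNase-treated ATEVs against NTEVs (Ccne2, 3.08% of all genes higher). With the PBS numbers crossed the block gave 4, 28 and 24 genes lower than PBS with ATEVs, NTEVs and DNase-treated ATEVs, against 10.7%, 12.3% and 14.8% of all genes. Crossing goes against the labels and follows the direction seen in these data, so its calls are no independent support. In either direction it called 21.7%, 23.5% and 28.8% of all genes, against 5.19%, 1.11% and 3.01% in the main fit. The cause of these changes was not tested.

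Leaving out 1 library turned the sign of uncalled values. Pold1 ranged from -0.13 to 0.60 for ATEVs against PBS, -0.084 to 0.35 for NTEVs against PBS, -0.11 to 0.26 for DNase-treated ATEVs against PBS and -0.28 to 0.47 for ATEVs against NTEVs. Ccne1 ranged from -0.32 to 1.51 for ATEVs against NTEVs. For DNase-treated against untreated ATEVs Cdc6 ranged from -1.43 to 0.48 and Prim1 from -0.15 to 1.18. For DNase-treated ATEVs against NTEVs Rrm1 ranged from -0.77 to 0.081 and Ccne2 from -0.79 to 2.18. Where a group was left with 1 library, that library is assumed to vary like the other groups. Such a group holds only 1 number, so these ranges also hold the difference between numbers. The lowest count of the 42 genes in a library was 75, for Ccne2, and how far depth adds to the spread between libraries was not tested.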
